A study of Mus musculus with 36 samples.

Results

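Haematopoietic stem and progenitor cells (HSPCs) from mouse bone marrow with a conditional knockout of Taf1 were driven towards granulocytes in culture, and the step from day 5 to day 7 of that course is described here. The 3 knockout libraries of day 7 were set against the 3 knockout libraries of day 5, which are 6 of the 36 RNA-seq libraries of the study and were chosen by their labels for genotype, day and lineage. Taf1 encodes the largest subunit of TFIID, the general factor that binds core promoters for RNA polymerase II. Day 7 knockout cells had been grown for 3 days in SCF and IL-3, for 2 days in SCF, IL-3 and G-CSF, and for 2 days in G-CSF alone. Day 5 knockout cells had been through the stages with SCF and IL-3 but not the stage with G-CSF alone. Control cells, labelled WT, passed through the same stages with 3 libraries a day, and their values are given only beside those of the knockout. The medium held horse serum, and every cytokine was at 50 ng/ml. Not given in the labels are the promoter that drives Cre, how or when deletion was induced, or which part of Taf1 it removes. Nor do they say whether the replicates came from separate mice, so the p-values reflect no more than the spread among these libraries.

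Neutrophils are built in stages. Promyelocytes make the proteins of primary granules, such as myeloperoxidase and elastase, myelocytes make those of secondary granules, such as lactoferrin, and later cells make gelatinase and place chemokine and formyl peptide receptors on their surface. C/EBPα and PU.1 start the programme and C/EBPε drives the secondary granule genes. G-CSF acts through its receptor Csf3r and STAT3, whereas IL-3 acts largely through STAT5. Mature neutrophils are small, non-dividing cells. The same progenitors can also yield macrophages, mast cells, basophils, eosinophils and megakaryocytes, and IL-3 supports several of these.

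Values are TPM, a transcript level scaled for transcript length and to a fixed total per library, and changes are log2 differences of TPM + 1 with their standard error (SE). A gene is said to have risen or fallen where limma's adjusted p, over all genes tested, was under 0.05. Of 11905 genes tested 4973 (41.8%) passed between knockout day 7 and knockout day 5. As deposited, 3326 (27.9%) rose and 1647 (13.8%) fell, with a median log2 change of 0.09 over all genes tested. The split depended on the scaling. With median-of-ratios scaling 3170 genes rose and 2748 fell, against 2342 that rose and 3629 that fell when short structural RNA, histone and calprotectin genes were left out and the rest rescaled. Values did not overlap between the groups for 6439 genes (54.1%), 3824 of them higher (32.1%) and 2615 lower (22.0%) at day 7. Replicate 1 stood apart at both days. At day 7, 296 and 368 genes differed by over 1 log2 unit between replicate 1 and replicates 2 and 3, which differed from each other for 39 genes, and at day 5 the numbers were 139, 180 and 18. Among the control libraries, replicate 1 of day 5 differed from the others for 633 and 661 genes. With knockout replicate 1 left out at both days, 4709 genes passed, 3395 higher and 1314 lower.

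Taf1 was low at both days, on chromosome X, 101532734 to 101601789, plus strand of mm10. It had 6.65, 8.66 and 8.01 TPM in day 7 knockout libraries, against 7.39, 7.19 and 7.49 TPM in day 5 knockout libraries, a log2 change of 0.06 ± 0.11 (limma adjusted p = 0.659). Control libraries held 10.2, 12.1 and 11.2 TPM at day 7 and 16.3, 13.3 and 12.9 TPM at day 5. All 6 knockout libraries thus lay below all 6 control libraries. Reads from outside the deleted part may enter these values.

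The most abundant transcripts at both days were those of S100a8 and S100a9. The short structural RNAs Rpph1 and Rmrp ranked 4th and 9th at day 7, against 3rd and 5th at day 5. Together S100a8 and S100a9, the genes of calprotectin, held 15.5 ± 0.937% of the TPM at day 7, against 20.0 ± 2.08% at day 5 (SD, n = 3 each). The 3 day 7 values were all lower, at exact permutation p = 0.1, the smallest that 3 against 3 libraries allow. S100a8 (chromosome 3, 90668978 to 90670035, plus strand, mm10) ranked as the most abundant gene on both days. It had 83296, 84443 and 76908 TPM at day 7, against 96767, 109333 and 114118 TPM at day 5, and neither it nor S100a9 passed (limma adjusted p = 0.489 and 0.578). Lyz2, lysozyme, a gene of granules and of macrophages, ranked 6th at day 7, against 30th at day 5. Ftl1, the light chain of the iron store ferritin, ranked 3rd at day 7, against 6th at day 5. Chil3, a chitinase-like protein of neutrophil precursors and macrophages, had 19193, 25467 and 26972 TPM at day 7, against 43485, 25291 and 29523 TPM at day 5, and did not pass (limma adjusted p = 0.507). The 10 most abundant genes of each library held 29.97 ± 2.67% of the TPM at day 7, against 35.3 ± 0.396% at day 5 (exact permutation p = 0.1).

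Markers of other cells were present in bulk RNA beside those of neutrophils, and fewer cells of a type and less RNA per cell cannot be told apart in such samples. The monocyte and macrophage list summed to 8550 to 9148 TPM at day 7, against 1774 to 2459 TPM at day 5. The mast cell and basophil list summed to 4069 to 10035 TPM at day 7, against 3369 to 4647 TPM at day 5, and the megakaryocyte list summed to 1644 to 2336 TPM at day 7, against 739 to 1090 TPM at day 5. The eosinophil list summed to 3140 to 3749 TPM at day 7, against 2673 to 3243 TPM at day 5, of which S100a6, a gene of many cell types, held most. Without S100a6 the eosinophil sums were 1036, 825 and 778 TPM at day 7, against 1552, 1130 and 1045 TPM at day 5. The erythroid list summed to 156 to 169 TPM at day 7, against 260 to 321 TPM at day 5. The dendritic cell list summed to 106 to 317 TPM at day 7, against 385 to 488 TPM at day 5. Without the chemokine gene Ccl17 its sums overlapped, at 102, 196 and 290 TPM at day 7, against 157, 158 and 210 TPM at day 5. The lymphoid list summed to 19.3 to 28.4 TPM at day 7, against 10.5 to 13.2 TPM at day 5. Without Il7r, the interleukin 7 receptor, it was lower at day 7, at 6.45, 3.71 and 4.34 TPM, against 8.23, 6.72 and 8.82 TPM at day 5. For scale, the secondary granule list summed to 45355 to 52111 TPM at day 7, against 43751 to 57949 TPM at day 5. Of 24 lymphoid symbols 6 were at 0 in all 6 knockout libraries, and of 32 macrophage symbols 1 was. Ly6g, a defining mouse neutrophil gene, was not analysed here. The part of these other cells in the results below was not tested.

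Some granule genes of the early and middle stages fell at day 7 and others rose. Of those of the last stage about as many rose as did not. Of 9 primary granule genes tested, 3 fell and 2 rose, where 13.8% of all genes tested fell and 27.9% rose. Without replicate 1 of day 7, or of both days, 6 of the primary granule genes fell. Their summed share was 0.404 ± 0.0511% of the TPM at day 7, against 0.405 ± 0.0110% at day 5 (SD, n = 3 each, exact permutation p = 1). Srgn, which encodes serglycin, held much of this sum, and without it the sums were 3219, 1561 and 1570 TPM at day 7, against 2840, 2679 and 2640 TPM at day 5. Elane, neutrophil elastase, had 109, 18 and 19.1 TPM at day 7, against 186, 136 and 161 TPM at day 5, a log2 change of -2.21 ± 0.48 (limma adjusted p = 0.00103). Prss57, a serine protease of the same granules, had 14, 4.99 and 5.66 TPM at day 7, against 19, 16.1 and 17.2 TPM at day 5 (log2 -1.13 ± 0.30). Ms4a3, a membrane protein of granulocyte and monocyte precursors, had 326, 184 and 176 TPM at day 7, against 496, 436 and 420.2 TPM at day 5 (log2 -1.03 ± 0.31). In all of these, replicate 1 of day 7 lay nearest to the day 5 values. The call for Ms4a3 was lost without replicate 2 or 3 of day 7 (limma adjusted p = 0.0525 to 0.0603).

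Mpo, myeloperoxidase, showed how far the replicates were apart. It had 739.8, 178 and 175 TPM at day 7, against 489, 424 and 425 TPM at day 5, so that replicate 1 lay above and replicates 2 and 3 below every day 5 library (log2 -0.64 ± 0.36, limma adjusted p = 0.162). Prtn3, proteinase 3, and Ctsg, cathepsin G, had the same order. Prtn3 had 807, 212 and 225 TPM at day 7, against 635, 607 and 544 TPM at day 5. Ctsg had 623, 259 and 274 TPM at day 7, against 491, 503 and 479 TPM at day 5. With knockout replicate 1 left out at both days the log2 changes were -1.26 for Mpo, -1.39 for Prtn3 and -0.88 for Ctsg (limma adjusted p = 0.000509, 0.00288 and 0.00623). The primary granule members that rose were Hexa, a lysosomal hexosaminidase (1.29 ± 0.13), and Srgn, the granule proteoglycan serglycin (0.50 ± 0.17). The call for Srgn was lost in 5 of 15 other settings, among them without replicate 2 or 3 of day 7 or replicate 2 of day 5, where its limma adjusted p was 0.0571 to 0.112. Both are held by other granules too.

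Of 19 secondary granule genes tested 4 rose and 3 fell, near the 27.9% and 13.8% of all genes, and with the 2 knockout groups fitted alone 5 rose and 6 fell. Ngp, neutrophilic granule protein, had 1996, 1213 and 1203 TPM at day 7, against 3895, 4565 and 5326 TPM at day 5. Ltf, lactoferrin, had 1919, 1187 and 1329 TPM at day 7, against 2771, 3055 and 3601 TPM at day 5. Camp, cathelicidin, had 45.3, 18.1 and 20.6 TPM at day 7, against 90.7, 55.9 and 59.7 TPM at day 5. Control libraries held 1534, 1349 and 511 TPM of Camp at day 7 and 318, 1193 and 1246 TPM at day 5, above all 6 knockout libraries. For all 3 genes every day 7 knockout library lay below every day 5 knockout library. None of the 3 passed in the fit over 24 libraries (limma adjusted p = 0.0621 for Ngp, 0.269 for Ltf and 0.0975 for Camp), which estimates the spread over all 8 groups of the course. All 3 passed with the 2 knockout groups fitted alone (limma adjusted p = 0.00148, 0.00432 and 0.0176). The log2 values were -1.67 ± 0.70, -1.11 ± 0.78 and -1.35 ± 0.64.

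The secondary granule members that fell in the main test were Cd177, a neutrophil surface glycoprotein, Olfm4, olfactomedin of a subset of neutrophils, and Ceacam10, an adhesion molecule. Cd177 had 119.9, 78.8 and 71.4 TPM at day 7, against 339.6, 378 and 368 TPM at day 5 (log2 -2.03 ± 0.45, limma adjusted p = 0.00121). Olfm4 had 28.6, 47 and 41.5 TPM at day 7, against 62.8, 145 and 163 TPM at day 5. Ceacam10 had 37.9, 31.2 and 25.7 TPM at day 7, against 75.3, 91.4 and 84.7 TPM at day 5. Those that rose were Mmp8, Lyz2, Itgam and Cyba. Mmp8, neutrophil collagenase, had 981, 2093 and 1774 TPM at day 7, against 115, 496 and 457 TPM at day 5 (log2 2.37 ± 0.41, limma adjusted p = 0.000124). Lyz2 had 13923, 16144 and 14362 TPM at day 7, against 1905, 2824 and 2754 TPM at day 5 (2.59 ± 0.19). Itgam, the CD11b chain of the Mac-1 integrin, rose by 1.0 ± 0.21 and Cyba, a subunit of the NADPH oxidase, by 0.54 ± 0.14. Lcn2, lipocalin 2, had overlapping values, 3705, 2695 and 2652 TPM at day 7 against 3001, 4149.9 and 4675 TPM at day 5.

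Of 17 tertiary granule and secretory vesicle genes 9 rose and 2 fell, against 27.9% and 13.8% of all genes tested. The median log2 change of the list was 0.84. Mmp9, gelatinase B, had 218, 199.6 and 196 TPM at day 7, against 28.9, 54.3 and 50.5 TPM at day 5 (log2 2.22 ± 0.29, limma adjusted p = 3.98e-06). Slc11a1, the metal transporter Nramp1 of phagocyte granules, had 47.2, 66.6 and 71.8 TPM at day 7, against 5.32, 7.07 and 5.95 TPM at day 5 (3.13 ± 0.18). Adam8, a surface protease, rose by 1.68 ± 0.14. Stfa3, one of several cystatins whose copies are nearly identical, so that its value is uncertain, had 1529, 1274 and 1132 TPM at day 7, against 94.9, 223 and 181 TPM at day 5. The members that fell were Cd177, given above, and Fcnb, ficolin B (7.48, 3.17 and 3.57 TPM at day 7, against 11.7, 13.1 and 12 TPM at day 5). The call for Fcnb was lost in 8 of 15 other settings, among them without any one library other than replicate 1 of day 7 (limma adjusted p = 0.0744 to 0.141), and with the replicate block its limma adjusted p was 0.0519. Mmp9, Mmp8 and Lyz2 were thus up in the same libraries in which Elane, Cd177 and Olfm4 were down.

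**Figure D1:**
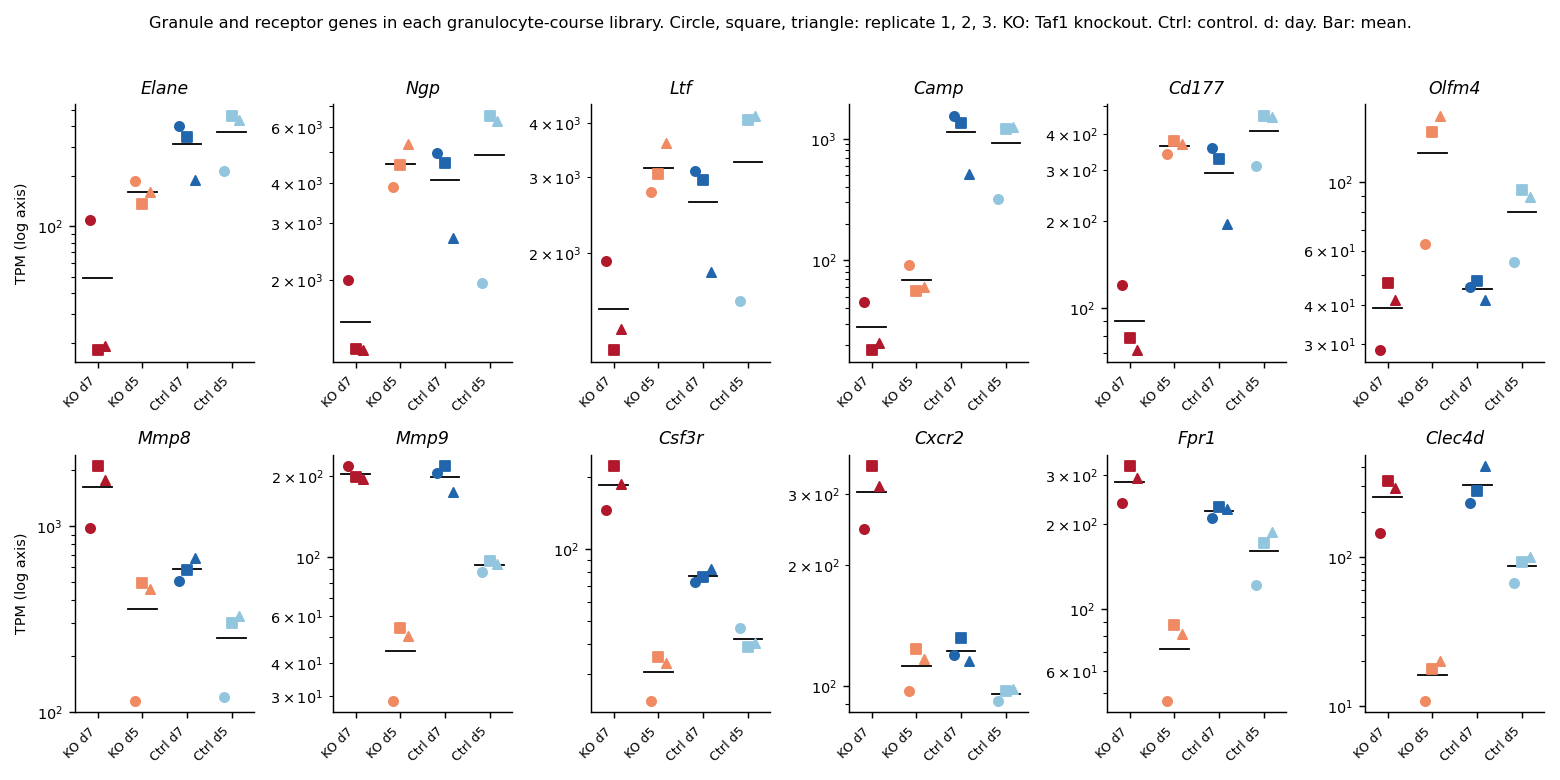
TPM on a log axis in each library for 12 granule and receptor genes, with knockout day 7, knockout day 5, control day 7 and control day 5 from left to right and a bar at each group's mean. In the top row the knockout day 7 values of Elane, Ngp, Ltf, Camp, Cd177 and Olfm4 lie below those of knockout day 5, and in the bottom row those of Mmp8, Mmp9, Csf3r, Cxcr2, Fpr1 and Clec4d lie above them.

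Receptors of mature neutrophils rose as a group. Of 29 genes of neutrophil surface and chemotaxis 18 rose, 4 fell and 7 did not pass, with a median log2 of 1.0 against 0.09 over all genes. Csf3r, the G-CSF receptor (chromosome 4, 126024550 to 126044440, plus strand, mm10), had 145, 220.5 and 187 TPM at day 7, against 23.3, 35.4 and 33.5 TPM at day 5 (log2 2.55 ± 0.16, limma adjusted p = 3.69e-10). Cxcr2, the receptor that draws neutrophils to CXC chemokines, had 246, 352 and 315 TPM at day 7, against 97, 123 and 116 TPM at day 5 (1.42 ± 0.14). Fpr1, the formyl peptide receptor, had 239, 322 and 293 TPM at day 7, against 47, 87.8 and 81.4 TPM at day 5 (2.01 ± 0.23). The groups did not overlap for any of these 3 receptors. Clec4d, a C-type lectin receptor, had 145, 326 and 291 TPM at day 7, against 10.9, 17.8 and 20.1 TPM at day 5. At 3.84 ± 0.25 (limma adjusted p = 5.13e-10) its change was among the largest rises of all genes. Wfdc17, a small secreted protein of phagocytes, rose by 2.75 ± 0.25, and Cd14, a co-receptor for lipopolysaccharide, by 1.77 ± 0.13. Retnlg, a resistin-like gene of mature neutrophils, had 299, 121 and 95.9 TPM at day 7, against 39.9, 46.7 and 41.2 TPM at day 5. Against the group, Cxcr4, which holds neutrophils in the marrow, fell, with 128, 111 and 113 TPM at day 7 against 156, 155 and 172 TPM at day 5 (-0.46 ± 0.15), a call that was lost without replicate 2 or 3 of day 7 or replicate 3 of day 5 (limma adjusted p = 0.0631 to 0.0668). Ly6c2, Ifitm6 and G0s2, an inhibitor of lipolysis, also fell. G0s2 had 74, 38.1 and 52.6 TPM at day 7, against 140.5, 131 and 149 TPM at day 5 (-1.39 ± 0.27). Several of the genes that rose, such as Cd14 and Fpr1, are also made by monocytes.

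Toll-like receptors and their adaptors moved with these receptors: 14 of 18 rose and 0 fell. Tlr13, which binds bacterial ribosomal RNA, had 93.5, 129 and 119.6 TPM at day 7, against 18.6, 25.9 and 25.8 TPM at day 5 (2.24 ± 0.17). Tlr1 had 7.14, 6.15 and 4.75 TPM at day 7, against 0.70, 1.23 and 0.99 TPM at day 5 (1.82 ± 0.16). Of 14 integrin and adhesion genes 10 rose and 1 fell, among them Selplg, the selectin ligand PSGL-1, at 1.52 ± 0.11. In the NADPH oxidase 4 of 8 subunits rose, or 2 after median-of-ratios scaling.

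Of 15 transcription factors of the granulocyte line tested 5 rose and 3 fell, shares not far from the 27.9% and 13.8% of all genes, and members are given one by one. Cebpb and Cebpd, C/EBP factors active in mature and stimulated phagocytes, rose together. Cebpb had 97.9, 104 and 109 TPM at day 7, against 51.2, 39.5 and 35.6 TPM at day 5 (log2 1.29 ± 0.23). Cebpd had 43.3, 38.7 and 39.4 TPM at day 7, against 15.1, 19.2 and 18 TPM at day 5 (1.17 ± 0.18). Cebpa, which starts granulocyte commitment, rose by 0.73 ± 0.11 and Spi1, which encodes PU.1, by 0.50 ± 0.09. Cebpe, the factor of the secondary granule programme, had 80.2, 44.7 and 52.5 TPM at day 7, against 135, 125 and 134 TPM at day 5 (-1.18 ± 0.26, limma adjusted p = 0.001). Gfi1, a repressor needed for neutrophil precursors, had 10, 4.42 and 4.05 TPM at day 7, against 15.7, 13.7 and 13.5 TPM at day 5 (-1.19 ± 0.23). The libraries of the 2 days did not overlap for any of these 6 genes. Of the secondary granule list Olfm4 fell and Mmp8 rose over the same step, and a link of either to Cebpe was not tested.

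Genes of the culture cytokine pathways also moved. Medium and time in culture changed together over this step and cannot be told apart. Of 14 receptors and signalling genes for the culture cytokines 9 rose and 2 fell. Socs3, a feedback inhibitor induced through STAT3, had 101, 149 and 139 TPM at day 7, against 21.2, 32.1 and 29.6 TPM at day 5 (log2 2.19 ± 0.16, limma adjusted p = 1.38e-09). Cish, a feedback inhibitor induced through STAT5, had 11.5, 20.03 and 23.7 TPM at day 7, against 50.3, 45.1 and 59 TPM at day 5 (-1.49 ± 0.19). Socs2, another STAT5 target, had 4.38, 9.75 and 11.7 TPM at day 7, against 20.7, 19.6 and 19.4 TPM at day 5 (-1.21 ± 0.25). Csf2rb, the chain shared by the receptors for IL-3 and GM-CSF, had 289, 643 and 704 TPM at day 7, against 200.4, 286 and 352 TPM at day 5 (0.90 ± 0.24), with replicate 1 of day 7 within the day 5 range. Its call was lost without replicate 3 of day 7 (limma adjusted p = 0.0532). Kit, the receptor for SCF, did not pass, with 10.4, 20.8 and 23.9 TPM at day 7 against 5.44, 13.5 and 16.2 TPM at day 5 (limma adjusted p = 0.11). With the replicate number as a block it passed (limma adjusted p = 0.0419).

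Most macrophage genes rose, in cells kept in G-CSF. Of 30 monocyte and macrophage genes tested 25 rose and 1 fell, with a median log2 of 1.84. With replicate 1 left out at both days 24 rose. Gpnmb, a membrane glycoprotein of lysosome-rich macrophages, had 1484, 1848 and 2059 TPM at day 7, against 148, 138 and 150.3 TPM at day 5, a log2 change of 3.61 ± 0.16 (limma adjusted p = 6.94e-12). Csf1r, the M-CSF receptor, had 131, 132 and 130.3 TPM at day 7, against 42.4, 32.8 and 32.8 TPM at day 5 (1.85 ± 0.12). Msr1, a scavenger receptor, had 36.4, 46.6 and 42.3 TPM at day 7, against 5.99, 3.93 and 4.49 TPM at day 5 (2.89 ± 0.14). Mertk, which takes up dying cells, had 24.3, 21.8 and 20.5 TPM at day 7, against 4.78, 2.49 and 2.87 TPM at day 5 (2.44 ± 0.20). Adgre1, the F4/80 antigen, had 124, 171 and 170.4 TPM at day 7, against 45.8, 39.99 and 41.9 TPM at day 5. In these 5 genes every day 7 library lay above every day 5 library.

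Apoe, the lipid carrier apolipoprotein E (chromosome 7, 19696109 to 19699188, minus strand, mm10), was the largest rise by rule and was uneven. It had 207, 63.6 and 58.1 TPM at day 7, against 5.24, 1.81 and 1.51 TPM at day 5 (log2 4.71 ± 0.52, limma adjusted p = 5.48e-07), with replicate 1 the highest on both days. The complement gene C1qc followed the same order, with 59.4, 11.8 and 12.2 TPM at day 7, against 7.59, 1.32 and 1.1 TPM at day 5 (2.64 ± 0.50). Trem2, a lipid receptor of macrophages, had 202, 219 and 241 TPM at day 7, against 54.5, 27.9 and 29 TPM at day 5. Cd36, a scavenger receptor for oxidised lipids, had 937, 942 and 941 TPM at day 7, against 189.6, 118 and 124 TPM at day 5. Igf1, a growth factor that macrophages make, had 50.02, 40.3 and 41.4 TPM at day 7, against 6.02, 2.39 and 3.3 TPM at day 5 (3.26 ± 0.24). The macrophage member that fell was Ly6c2, a surface antigen of inflammatory monocytes and of granulocyte precursors, with 223, 161 and 165 TPM at day 7 against 335, 456 and 503 TPM at day 5 (-1.23 ± 0.24). The list's summed level in control cells was 8856 to 12416 TPM at day 7, against 5003 to 6298 TPM at day 5, so that at day 5 every knockout library lay below every control library.

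Lysosome genes rose almost as a block. Of 30 tested 28 rose and none fell, with a median log2 of 1.05, or 0.95 after median-of-ratios scaling, where 28 rose. Together they took 2.17 ± 0.0666% of the TPM at day 7, against 0.702 ± 0.0398% at day 5 (SD, n = 3 each, exact permutation p = 0.1). The list summed to 21012 to 22333 TPM in the knockout at day 7, against 6623 to 7419 TPM at day 5, and to 18389 to 29285 TPM in control cells at day 7, against 13353 to 17043 TPM at day 5. Ctsl, cathepsin L, had 1858, 1363 and 1325 TPM at day 7, against 296, 109.98 and 112 TPM at day 5 (3.27 ± 0.30). Ctsb, cathepsin B, had 1485, 1382 and 1356 TPM at day 7, against 306, 228 and 242 TPM at day 5 (2.45 ± 0.19). Ctsd, cathepsin D (chromosome 7, 142375911 to 142388038, minus strand, mm10), had 6827, 7209 and 7570.5 TPM at day 7, against 1807, 1828 and 1947 TPM at day 5 (1.95 ± 0.15, limma adjusted p = 2.69e-09). Lipa, the acid lipase, rose by 2.06 ± 0.15 and Ctsh, cathepsin H, by 1.93 ± 0.17, while Lamp1, a membrane protein of lysosomes, rose by 0.89 ± 0.11. Neu1, a sialidase, did not pass (43.8, 42.5 and 46.1 TPM at day 7, against 39.3, 40.5 and 43.9 TPM at day 5).

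The transcription factors TFEB and TFE3 are known to switch on lysosome genes at sites spelled CACGTG. Promoter windows of Ctsd and Lamp1 that hold this spelling are shown as examples, and its part in the rise was not tested. The windows are from RefSeq on GRCm38.p6, the 250 bases before the gene start, 5′ to 3′ on the gene's strand, with CACGTG in capitals.
Ctsd (chr7:142387828-142388077, minus strand): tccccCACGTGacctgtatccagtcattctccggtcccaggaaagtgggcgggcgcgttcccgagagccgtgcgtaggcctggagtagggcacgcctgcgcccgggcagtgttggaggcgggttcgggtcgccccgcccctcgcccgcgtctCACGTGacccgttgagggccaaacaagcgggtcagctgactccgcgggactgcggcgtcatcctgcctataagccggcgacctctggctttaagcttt
Lamp1 (chr8:13158911-13159160, plus strand): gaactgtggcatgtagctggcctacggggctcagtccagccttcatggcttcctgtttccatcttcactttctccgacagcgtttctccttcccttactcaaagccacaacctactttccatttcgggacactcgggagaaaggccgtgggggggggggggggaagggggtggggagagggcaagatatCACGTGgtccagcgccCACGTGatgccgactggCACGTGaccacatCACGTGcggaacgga
The spelling reads the same on both strands and stands in the Ctsd window 2 times and in the Lamp1 window 4 times. The gene start is that of RefSeq, and of the Ctsd window 211 bases lie inside the longer extent that GENCODE M21 gives the gene, as printed above. Windows of 300 bases, which run to 50 bases past the start, were matched by symbol for 9082 of the 11905 genes tested and for 22 of the 30 lysosome genes. CACGTG stood in a window of 9 of these 22 genes (40.9%) and of 1087 of the 9082 genes (12%). It also stood in 7 of 18 p53 targets with a window (38.9%), 8 of 26 translation factor genes (30.8%) and 0 of 18 NRF2 and glutathione genes. Of 35 translation factor genes, 22 were lower and 1 higher at day 7 without overlap, against 22.0% and 32.1% of all genes. CACGTG itself was thus not particular to lists that rose. Its longer form TCACGTGA stood in 5 of the 22 lysosome genes (22.7%), against 205 of the 9082 genes (2.26%). It stood in 1 of the 18 p53 targets (5.56%) and 2 of the 26 translation factor genes (7.69%). GTCACGTG, another longer form, stood in 7 lysosome genes (31.8%), against 448 of the 9082 genes (4.93%). It stood in 1 p53 target (5.56%) and 4 translation factor genes (15.4%). A match describes letters in a window and not binding of a factor.

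About as many oxidative stress genes rose as did not. Of 21 NRF2 and glutathione genes 11 rose and 1 fell. Hmox1, haem oxygenase, had 454, 491 and 579.97 TPM at day 7, against 134, 70.3 and 80.02 TPM at day 5 (2.46 ± 0.26). Prdx1, a peroxiredoxin, had 1164, 2491 and 2634 TPM at day 7, against 449, 531 and 564 TPM at day 5 (1.94 ± 0.19). Gstm1, a glutathione transferase, rose by 1.77 ± 0.20 and Srxn1, sulfiredoxin, by 1.51 ± 0.17. Ftl1 had 32396, 34272 and 37852 TPM at day 7, against 14818, 14165 and 14884 TPM at day 5 (1.25 ± 0.16, limma adjusted p = 4.3e-06). For Prdx1 and Srxn1 replicate 1 was the lowest of the day 7 libraries, yet above all day 5 libraries.

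**Figure D2:**
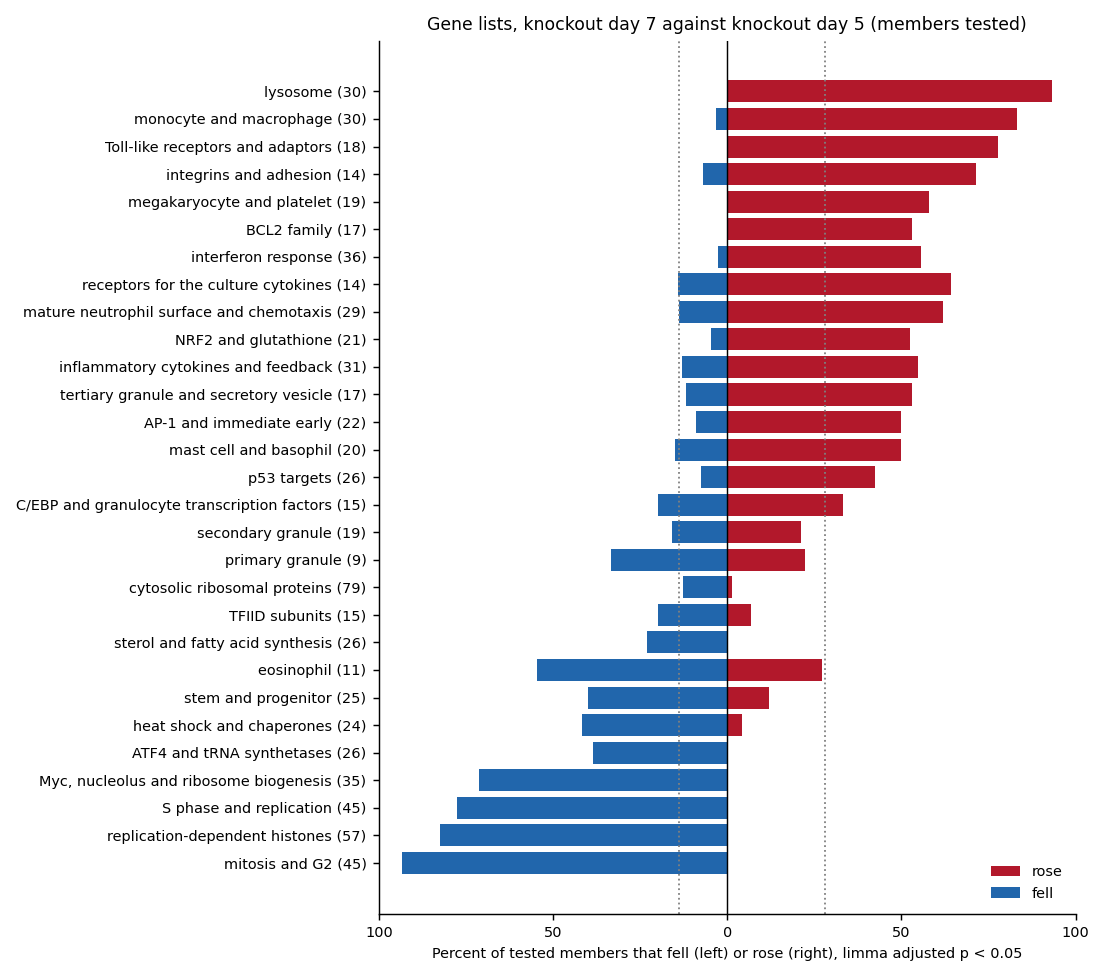
For 29 gene lists, the percent of tested members that rose (right, positive) or fell (left, drawn below 0) between knockout day 7 and knockout day 5, with the number of members tested beside each name. Grey dotted lines mark the 27.9% of all genes tested that rose and the 13.8% that fell. Lysosome, macrophage and Toll-like receptor genes stand at the rising end and mitosis, histone and S phase genes at the falling end.

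Most genes of cell division fell. Of 45 genes of mitosis and G2 42 fell and none rose, with a median log2 of -0.67. Ccna2, cyclin A2, had 69.8, 54.5 and 52.9 TPM at day 7, against 109, 105 and 107 TPM at day 5 (-0.86 ± 0.11, limma adjusted p = 4.18e-06). Cdc20, an activator of the anaphase-promoting complex, had 61.5, 43.2 and 44 TPM at day 7, against 86.2, 88.2 and 85.6 TPM at day 5 (-0.81 ± 0.13). Mki67, the Ki-67 antigen, had 53.3, 48.1 and 47 TPM at day 7, against 74.4, 76.5 and 103 TPM at day 5 (-0.75 ± 0.15). These transcripts were lower by less than a factor of 2 and remained well above 1 TPM in every day 7 library. Of 45 S phase genes 35 fell and none rose (median -0.50). Rrm2, the small subunit of ribonucleotide reductase, had 92.5, 73.4 and 75.4 TPM at day 7, against 135, 137 and 149 TPM at day 5 (-0.80 ± 0.14). Dut, which clears dUTP, and Tyms, thymidylate synthase, fell by 0.70 and by 0.67 on the log2 scale.

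Mitosis genes are known to be shut off through a spelling TTTGAA near their start, often close to CCAAT, to which NF-Y binds. The windows of Cdc20 and Mki67, from the same RefSeq table, show both spellings in capitals, read on either strand.
Cdc20 (chr4:118437344-118437593, minus strand): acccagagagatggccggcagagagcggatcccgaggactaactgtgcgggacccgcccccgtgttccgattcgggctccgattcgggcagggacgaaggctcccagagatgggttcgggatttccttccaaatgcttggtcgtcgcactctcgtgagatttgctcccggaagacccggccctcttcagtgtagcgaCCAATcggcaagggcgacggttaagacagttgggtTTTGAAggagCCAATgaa
Mki67 (chr7:135716380-135716629, minus strand): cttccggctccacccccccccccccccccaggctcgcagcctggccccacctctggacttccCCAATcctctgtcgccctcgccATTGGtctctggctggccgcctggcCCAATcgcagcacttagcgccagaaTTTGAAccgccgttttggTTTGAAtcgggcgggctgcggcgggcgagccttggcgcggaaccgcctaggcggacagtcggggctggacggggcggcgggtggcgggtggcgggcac
TTTGAA stood in the 300-base windows of 28 of 37 matched mitosis genes (75.7%), against 1310 of all 9082 genes with a window (14.4%), and CCAAT in those of 29 (78.4%), against 3909 (43%). In the S phase list TTTGAA stood in 5 of 36 (13.9%) and CCAAT in 21 (58.3%). GCGGGAA, a spelling for E2F, stood in 15 of these 36 (41.7%) and in 0 of the 37 mitosis genes, against 902 of all genes (9.93%). TTTCCCGC stood in 6 of the 36 (16.7%), against 218 of all genes (2.4%). In all 16 spellings were searched on both strands, and those shown were chosen after the matches were seen. Besides CACGTG they were its flanked forms TCACGTGA (as bound by TFEB) and GTCACGTG (a longer form of the same site), both of which contain it. Further spellings were TTTGAA (the cell cycle homology region), its variant with the letters TTCGAA (one base apart), CCAAT (the NF-Y box) and TATAAA (the TATA box). For C/EBP the spellings were TTNNGCAA and, as its reverse complement, TTGCNNAA. For E2F they were GCGGGAA and TTTCCCGC (which contains its reverse complement). The remaining ones were GAGGAAG (PU.1), TGACTCA (AP-1), CACTTCC (an ETS site), a Maf recognition element and an antioxidant response element.

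Growth genes fell with those of division. Myc, which drives ribosome production, had 37.9, 30.8 and 32.5 TPM at day 7, against 68, 74.3 and 74 TPM at day 5 (-1.08 ± 0.12, limma adjusted p = 9.37e-07). Of 35 Myc, nucleolus and ribosome biogenesis genes 25 fell and none rose. Npm1, nucleophosmin, had 436, 429 and 410.3 TPM at day 7, against 749, 782 and 721 TPM at day 5 (-0.82 ± 0.13). Cad, which starts pyrimidine synthesis, changed by -0.95 ± 0.15 on the log2 scale, and Srm, spermidine synthase, by -0.75 ± 0.11. Cytosolic ribosomal protein genes moved far less. Of 79 tested 10 fell and 1 rose, with a median of -0.04, and the count depended on the scaling, at 30 lower after median-of-ratios scaling and 61 lower with short structural RNA, histone and calprotectin genes left out. It was 4 with replicate 1 left out at both days, 4 without replicate 1 or 2 of day 5, and 5 without replicate 2 of day 7.

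Replication-dependent histone genes fell in 47 of 57 cases and none rose, and their share was 4.33 ± 1.59% of the TPM at day 7, against 7.38 ± 0.367% at day 5 (SD, n = 3 each, exact permutation p = 0.1). At day 7 the share was 6.16%, 3.29% and 3.55% in replicates 1, 2 and 3. Hist1h4f had 2369.7, 865 and 958 TPM at day 7, against 2884, 2926 and 2866 TPM at day 5 (-1.21 ± 0.23). Reads of histone genes can be shared between near-identical copies. Short structural RNAs had the same order, with 7.01%, 2.30% and 2.34% of the TPM at day 7, against 8.71%, 6.71% and 6.15% at day 5 (exact permutation p = 0.3). Rmrp, the RNA of a ribosomal RNA processing enzyme, had 18672, 5320.3 and 5077 TPM at day 7, against 34297, 28849 and 23886 TPM at day 5 (-1.85 ± 0.35). Snora26, Snora34, Snora28, Snora23 and Snora52, small RNAs that guide RNA modification, were also among the 15 largest falls. Their reads vary widely between libraries, as for Snora34, with 0, 0 and 13.1 TPM at day 7 against 40.7, 77.1 and 30.2 TPM at day 5, whose call was lost without replicate 2 of day 7 (limma adjusted p = 0.0513).

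Progenitor genes were lower in part. Of 25 stem and progenitor genes 10 fell and 3 rose, where 13.8% of all genes tested fell and 27.9% rose. Cd34, a surface marker of progenitors, had 48.9, 42 and 38.2 TPM at day 7, against 94, 106 and 86 TPM at day 5 (-1.13 ± 0.14, limma adjusted p = 2.05e-06). The members that rose were Ly6a, which encodes Sca-1 and is also induced by interferon (9.61, 35.5 and 32.1 TPM at day 7, against 1.68, 4.03 and 2.45 TPM at day 5), Cd48, an antigen of committed cells (0.78 ± 0.14), and Gata2, a factor of progenitors and mast cells (20.9, 43.3 and 53.2 TPM at day 7, against 14.2, 24.8 and 31.4 TPM at day 5). Gata2 passed narrowly (limma adjusted p = 0.0455), and its call was lost in 7 of 15 other settings, among them without replicate 2 or 3 of day 7 or replicate 1 or 2 of day 5 (limma adjusted p = 0.0621 to 0.289). Among G1 regulators the D-type cyclins moved in opposite directions. Ccnd1, cyclin D1, had 19.1, 19.8 and 18.9 TPM at day 7, against 10.04, 5.44 and 5.22 TPM at day 5 (1.41 ± 0.19). Ccnd2, cyclin D2, had 11.4, 16 and 17.1 TPM at day 7, against 20.9, 28.5 and 33.4 TPM at day 5 (-0.85 ± 0.17). Cdkn1a, the cell cycle inhibitor p21, did not pass (45.1, 65.1 and 68.8 TPM at day 7, against 51.8, 51.8 and 61.5 TPM at day 5, limma adjusted p = 0.797).

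The largest fall of all was that of Ccl17, a chemokine that attracts Ccr4-bearing T cells (chromosome 8, 94810453 to 94812036, plus strand, mm10). It had 3.69, 10.5 and 26.6 TPM at day 7, against 242, 227 and 278 TPM at day 5 (-4.45 ± 0.43, limma adjusted p = 8.73e-08). Ccl24, eotaxin 2, which attracts eosinophils, had 19.3, 16.4 and 22 TPM at day 7, against 417, 183 and 159.9 TPM at day 5 (-3.53 ± 0.28). Il13 and Il4, type 2 cytokines, fell too. Il13 had 0.44, 3.03 and 3.86 TPM at day 7, against 8.96, 16.7 and 19.9 TPM at day 5 (-2.35 ± 0.30). Il4 had 2.95, 13.9 and 14.5 TPM at day 7, against 20.9, 26.6 and 33.5 TPM at day 5 (-1.51 ± 0.38). For Ccl17 and Il13 replicate 1 of day 7 was the lowest, and the groups of all 4 genes did not overlap. Ccl22, the other ligand of Ccr4, did not pass (10.3, 54.3 and 103 TPM at day 7, against 65.5, 75.9 and 119.9 TPM at day 5, limma adjusted p = 0.101). Lipg, endothelial lipase, had 83.4, 42.4 and 35 TPM at day 7, against 322, 279 and 298 TPM at day 5 (-2.56 ± 0.28). Nov, a matricellular protein, had 7.24, 38.7 and 54.4 TPM at day 7, against 70.1, 189.7 and 200.3 TPM at day 5 (-2.41 ± 0.52).

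Several eosinophil granule genes fell, while the list rose in a share near that of all genes. Of 11 tested 6 fell and 3 rose, where 13.8% of all genes tested fell and 27.9% rose. Epx, eosinophil peroxidase, had 0.52, 0.27 and 0.31 TPM at day 7, against 19.3, 12.2 and 11.6 TPM at day 5 (-3.46 ± 0.49, limma adjusted p = 1.24e-05). Prg2, major basic protein, had 153, 133 and 232 TPM at day 7, against 689, 738 and 709 TPM at day 5 (-2.08 ± 0.46). Prg3, a homologue of Prg2, was at -1.90 ± 0.42. The members that rose were Siglecf, an inhibitory lectin (1.11 ± 0.17), Alox15, a lipoxygenase (1.68 ± 0.23), and S100a6 (0.56 ± 0.22), which macrophages can also express. The call for S100a6 was lost in 11 of 15 other settings, among them without any one library other than replicate 1 of day 7 (limma adjusted p = 0.0752 to 0.174), and with the replicate block its limma adjusted p was 0.067. The receptor genes Il5ra and Ccr3 did not reach 1 TPM in 3 libraries and were not tested.

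Of 20 mast cell and basophil genes 10 rose, led by proteases, and 3 fell, against 27.9% and 13.8% of all genes tested. Tpsb2, a mast cell tryptase, had 99.2, 427 and 507 TPM at day 7, against 14.8, 30.03 and 26.1 TPM at day 5 (3.56 ± 0.38, limma adjusted p = 2.9e-07). Cma1, mast cell chymase, had 28.2, 152 and 179 TPM at day 7, against 12.7, 31.1 and 26.1 TPM at day 5 (2.02 ± 0.46). Mcpt8, a basophil protease, had 206, 539 and 557 TPM at day 7, against 123, 146 and 156 TPM at day 5. Prss34, another, had 761, 1079.9 and 1505 TPM at day 7, against 213, 171 and 285 TPM at day 5. Fcer1a, the binding chain of the IgE receptor, had 124, 401 and 434 TPM at day 7, against 48.5, 100.3 and 98.8 TPM at day 5 (1.82 ± 0.49). Slc6a4, the serotonin transporter, rose by 2.05 ± 0.27. In all of these, replicate 1 of day 7 was the lowest of the 3 day 7 libraries. The list summed to 4069, 9072 and 10035 TPM in replicates 1, 2 and 3 at day 7, against 3369, 4385 and 4647 TPM at day 5 (exact permutation p = 0.3 for its share of the TPM). Of the list, 6 rose with the 2 knockout groups fitted alone and without replicate 2 or 3 of day 7. The members that fell were Il4, Il6 and Ms4a3.

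Megakaryocyte and platelet genes rose in 11 of 19 cases and none fell, against 27.9% and 13.8% of all genes tested. Their median log2 change was 0.78. In control cells none rose and 16 fell over the same 2 days. Gp6, the platelet collagen receptor, had 9.76, 13.2 and 14.7 TPM at day 7, against 3.64, 1.7 and 3.16 TPM at day 5 (1.84 ± 0.24). Gng11, a G protein subunit, had 22.5, 34.3 and 35.8 TPM at day 7, against 12.1, 7.68 and 8.45 TPM at day 5 (1.61 ± 0.20). Clec1b, the podoplanin receptor of platelets, had 12.1, 14 and 22.9 TPM at day 7, against 7.66, 1.52 and 3.55 TPM at day 5 (1.85 ± 0.34). Pf4, platelet factor 4, had 969.8, 920.2 and 1217 TPM at day 7, against 597, 341 and 485 TPM at day 5. Itga2b, the CD41 integrin chain, had 99, 165 and 234 TPM at day 7, against 67.9, 67.7 and 83.8 TPM at day 5. The test of the difference between the genotypes passed for 18 of the 19 genes as deposited and for 18 after median-of-ratios scaling, in each case with the knockout change the higher. For Gp6 it was 2.68 ± 0.35 (limma adjusted p = 4.64e-05), where control libraries held 2.55, 3.03 and 5.59 TPM at day 7, against 7.12, 8.35 and 6.09 TPM at day 5. For Clec1b it was 2.93 ± 0.48 (limma adjusted p = 0.000575).

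**Figure D3:**
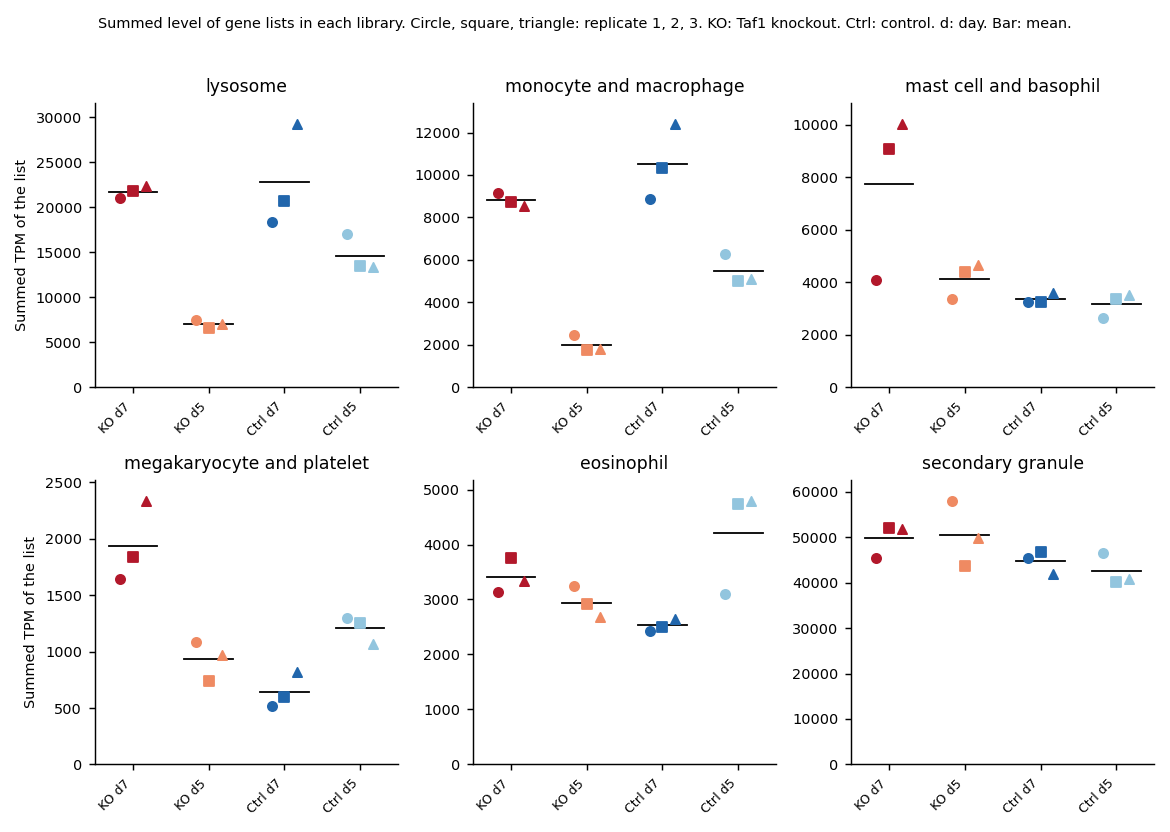
Summed TPM of 6 gene lists in each library on a linear axis from 0, with knockout day 7, knockout day 5, control day 7 and control day 5 from left to right and a bar at each group's mean. The lysosome and macrophage sums of the 3 knockout day 7 libraries stand clear of those of knockout day 5, the megakaryocyte sum is highest at knockout day 7, replicate 1 of knockout day 7 is the lowest of its group for mast cells, and most of the eosinophil sum in knockout cells is S100a6.

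Inflammatory genes rose more often than they fell. Of 31 cytokine and feedback genes 17 rose and 4 fell, with a median log2 of 0.66. Il1b, interleukin 1β, had 113, 95.9 and 96.8 TPM at day 7, against 34.1, 36.5 and 40.9 TPM at day 5 (1.43 ± 0.20). Cxcl2, a ligand of Cxcr2, had 236, 137 and 119 TPM at day 7, against 26.4, 39.9 and 39.7 TPM at day 5 (2.14 ± 0.36). Tnfaip2 rose by 0.97 ± 0.15. Ccl5, a chemokine for T cells, had 9.07, 35.5 and 51.8 TPM at day 7, against 3.22, 2.05 and 2.44 TPM at day 5, with replicate 1 again the lowest. The members that fell were Ccl24, Il6, Osm and Socs1. Tnf did not pass (26, 44.3 and 49.6 TPM at day 7, against 17.8, 38.5 and 42.6 TPM at day 5, limma adjusted p = 0.34). Of 22 AP-1 and immediate early genes 11 rose and 2 fell, with Atf3, a stress-induced factor, at 1.61 ± 0.22, Ier5 at 1.31 ± 0.14 and Junb at 1.36 ± 0.19.

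Of 36 interferon-induced genes 20 rose, mostly at low levels, and 1 fell, against 27.9% and 13.8% of all genes tested. Rsad2, viperin, had 2.53, 3.13 and 2.48 TPM at day 7, against 0.67, 0.75 and 1.17 TPM at day 5 (1.0 ± 0.12). Irf9, a subunit of the interferon-activated factor, had 15.7, 23.2 and 24.2 TPM at day 7, against 8.82, 11.2 and 11.1 TPM at day 5 (0.94 ± 0.15). The member that fell was Irf7, a regulator of interferon production, with 13.4, 18.6 and 21.9 TPM at day 7 against 25.7, 28.6 and 28.4 TPM at day 5 (-0.62 ± 0.17).

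Fc receptor, dendritic cell and MHC class II genes rose in shares near the 27.9% of all genes tested that rose, where 13.8% fell. Of 7 Fc receptor genes 2 rose and 0 fell. Fcgr4, a receptor for IgG on neutrophils and monocytes, had 103, 81.1 and 77.9 TPM at day 7, against 51, 48.4 and 48.6 TPM at day 5 (0.80 ± 0.21). Fcgr3 had 568, 750.3 and 713 TPM at day 7, against 319, 292 and 291 TPM at day 5 (1.16 ± 0.15). Of 11 dendritic cell genes tested 3 rose and 1 fell. Ccr7, which leads dendritic cells to lymph nodes, had 9.41, 37.6 and 58.8 TPM at day 7, against 8.68, 11.9 and 18.2 TPM at day 5 (1.11 ± 0.43). Its libraries overlapped, and its call was lost in 8 of 15 other settings, among them without replicate 2 or 3 of day 7 or replicate 1 or 2 of day 5 (limma adjusted p = 0.0946 to 0.302). Fscn1, the actin bundler fascin of mature dendritic cells, had 2.13, 8.4 and 14.2 TPM at day 7, against 1.49, 2.27 and 3.71 TPM at day 5 (1.18 ± 0.35), a call that was lost without replicate 3 of day 7 or replicate 1 of day 5 (limma adjusted p = 0.0566 to 0.101). Of 12 MHC class II genes 3 rose and none fell, and of 20 erythroid genes 1 rose and 3 fell. Car2, carbonic anhydrase 2, was the erythroid list's strongest call, with 11.3, 21.5 and 20.2 TPM at day 7 against 69.2, 105 and 96.5 TPM at day 5 (-2.31 ± 0.28). Of 8 calprotectin and other S100 genes 5 rose and none fell, with S100a4 at 603, 806 and 912 TPM at day 7, against 317, 264 and 275 TPM at day 5 (1.42 ± 0.26).

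Survival and p53 genes rose in part, where 27.9% of all genes tested rose and 13.8% fell. Of 17 BCL2 family genes 9 rose and none fell. Mcl1, which neutrophils need to survive, had 189, 216 and 195 TPM at day 7, against 120.5, 107 and 108 TPM at day 5 (0.83 ± 0.12). Bcl2l1, which encodes Bcl-xL, had 42.8, 59.6 and 62.7 TPM at day 7, against 22.6, 27.3 and 31.7 TPM at day 5 (0.98 ± 0.14). The pro-death member Bmf also rose, at 6.32, 12.1 and 12.5 TPM at day 7, against 5.12, 2.98 and 4.24 TPM at day 5. Of 26 p53 targets 11 rose and 2 fell. Gdf15, a stress-induced cytokine, had 67.3, 71.5 and 74.1 TPM at day 7, against 9.34, 6.8 and 6.8 TPM at day 5 (3.07 ± 0.31, limma adjusted p = 1.92e-07). Fas, the death receptor, rose by 1.50 ± 0.19, Plk2, a kinase of the polo family, by 1.51 ± 0.19, and Phlda3, an inhibitor of Akt, by 1.40 ± 0.19. Cdkn1a, the best known p53 target, was not among them, as given above.

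Among the partners of Taf1 the number that fell depended on the scaling. Of 15 TFIID subunits 3 fell and 1 rose, where 13.8% of all genes tested fell and 27.9% rose. After median-of-ratios scaling 6 fell and 1 rose, where 2748 of 11854 genes fell. With short structural RNA, histone and calprotectin genes left out 8 fell and 1 rose, where 3629 of 12178 genes fell. Taf4b, a cell-type-restricted subunit, had 2.71, 2.84 and 2.53 TPM at day 7, against 4.42, 5.95 and 5.36 TPM at day 5 (-0.75 ± 0.19). Taf5 fell by 0.49 and Taf9 by 0.43. The call for Taf5 was lost in 5 of 15 other settings, among them without replicate 2 or 3 of day 7 or replicate 1 or 3 of day 5 (limma adjusted p = 0.0544 to 0.0678). Taf8 rose, with 9.09, 11.5 and 13.4 TPM at day 7 against 6.98, 7.57 and 7.44 TPM at day 5 (0.55 ± 0.14). Among 12 RNA polymerase II subunits 3 fell and none rose, of which Polr2h was at -0.52 ± 0.11.

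Of the metabolic and stress lists, those of amino acid supply and protein folding fell in part, where 13.8% of all genes tested fell and 27.9% rose. Of 26 ATF4 and tRNA synthetase genes 10 fell and none rose. The count was 5 without replicate 2 or 3 of day 7 or replicate 2 of day 5, 6 without replicate 1 or 3 of day 5, and 18 with the knockout groups fitted alone. Phgdh, the first enzyme of serine synthesis, had 130.4, 73.8 and 72.2 TPM at day 7, against 219, 213 and 191 TPM at day 5 (-1.22 ± 0.17). Of 24 chaperones 10 fell and 1 rose, with Hsp90aa1 at -0.72 ± 0.14. Of 26 sterol and fatty acid genes 6 fell and none rose, or 11 with short structural RNA, histone and calprotectin genes left out, with Fdps, farnesyl diphosphate synthase, at 97.8, 89 and 91.7 TPM at day 7, against 216, 258 and 265 TPM at day 5 (-1.39 ± 0.28). Glycolysis genes were split, with 4 higher and 3 lower of 26. Oxidative phosphorylation genes stood at 5 higher and 5 lower of 43, or 1 and 15 after median-of-ratios scaling.

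Several of the largest rises lay outside these lists. Serpinb9b, an inhibitor of granule proteases, had 16.2, 68.2 and 93.3 TPM at day 7, against 1.23, 1.57 and 2.8 TPM at day 5 (4.11 ± 0.37), with replicate 1 the lowest at day 7. Pla2g7, which inactivates platelet-activating factor, had 218, 504 and 453 TPM at day 7, against 30.6, 34.4 and 33.3 TPM at day 5 (3.45 ± 0.24). Npy, a neuropeptide, had 139, 171 and 174 TPM at day 7, against 17.5, 13.8 and 10.9 TPM at day 5 (3.44 ± 0.20). Slc37a2, a sugar phosphate transporter of macrophages, had 58.4, 48 and 54.9 TPM at day 7, against 5.29, 3.71 and 4.88 TPM at day 5 (3.29 ± 0.20). Sirpb1b and LOC100038947, signal-regulatory proteins whose reads nearly identical copies may share, are uncertain and rose by 3.43 ± 0.25 and 3.16 ± 0.28. Cd300lh, an immunoglobulin-like receptor of another such family, rose by 3.17 ± 0.25. Among the falls outside the lists, Plet1, a surface protein, had 0.37, 1.81 and 2.97 TPM at day 7, against 15.4, 25.5 and 28.8 TPM at day 5 (-3.24 ± 0.30). Nrep and Serpina3f had log2 changes of -2.67 ± 0.23 and -2.66 ± 0.23.

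Whether the step differed from that of control cells was tested as the knockout change minus the control change. Of 11905 genes 1680 (14.1%) passed, 1562 (13.1%) with the knockout change the higher and 118 (0.991%) with it the lower. Median-of-ratios scaling gave 929 genes, 600 higher and 329 lower, and the median difference over all genes was -0.01, against 0.25 as deposited. Each difference named below is therefore followed, in parentheses, by its value after median-of-ratios scaling, and all of these passed under both. The count was 534 with the 4 day 5 and day 7 groups fitted alone, and it rested on single libraries. It was 3276 without replicate 1, 864 without replicate 2 and 780 without replicate 3 of knockout day 7, 995 without replicate 2 of knockout day 5, and 793, 917 and 3015 without replicates 1, 2 and 3 of control day 7. In control cells 4521 genes (38.0%) passed between day 7 and day 5, of which 3328 (28.0%) were lower at day 7. After median-of-ratios scaling the control split turned, to 2774 genes higher and 2158 lower.

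Gdf15 and the chemokines Ccl7 and Cxcl3 rose in the knockout and fell in control cells. Gdf15 had 12, 11.2 and 31.9 TPM in control cells at day 7, against 70.6, 34 and 37.9 TPM at day 5, and the difference of the changes was 4.48 ± 0.44 (limma adjusted p = 1.77e-06), or 4.19 after median-of-ratios scaling. Ccl7, which attracts monocytes, had 224, 234 and 199.5 TPM in the knockout at day 7, against 131, 68.6 and 70.04 TPM at day 5. In controls it had 6.32, 8.55 and 22 TPM at day 7, against 99.8, 84.7 and 86.2 TPM at day 5, a difference of 4.30 ± 0.41 (4.01 after scaling). Cxcl3, another ligand of Cxcr2, differed by 4.25 ± 0.59 (3.98). Tpsb2 differed by 4.19 ± 0.53 (3.89), with 18.9, 17.6 and 31.5 TPM in controls at day 7, against 33.1, 35.4 and 34.5 TPM at day 5. The mast cell proteases Cma1, Mcpt2 and Mcpt4 differed by 4.15 ± 0.65, 4.15 ± 1.0 and 4.01 ± 0.56 (3.85, 4.0 and 3.88). Mcpt4 did not pass in the knockout, where its libraries overlapped. In controls Mcpt4 had 0.25, 0.16 and 2.16 TPM at day 7, against 5.98, 19.3 and 19.1 TPM at day 5. Mcpt2 did not pass in controls. Msr1 rose in the knockout, against 64.6, 84.4 and 94 TPM at day 7 and 53.4, 47.2 and 47.8 TPM at day 5 in controls, which started from a higher level, and the difference was 2.21 ± 0.20 (1.91). Gpnmb, Igf1 and Ctsl differed by 2.24 ± 0.23, 2.57 ± 0.34 and 2.42 ± 0.42 (1.93, 2.29 and 2.11). Csf3r differed by 1.69 ± 0.22 (1.39) and Socs3 by 1.35 ± 0.22 (1.05). Cish fell in both genotypes, with a log2 change of -1.49 ± 0.19 in the knockout and -2.99 ± 0.19 in controls, a difference of 1.51 ± 0.26 (1.26).

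Genes with the knockout change the lower were the fewer, as deposited and after median-of-ratios scaling, and were led by Saa3, an acute phase protein of macrophages. Saa3 had 15, 35 and 30.6 TPM in the knockout at day 7, against 6.15, 6.71 and 8.27 TPM at day 5. Control cells had 1747, 2106 and 2521 TPM at day 7, against 85.4, 73.9 and 74.5 TPM at day 5, and the difference was -3.02 ± 0.38 (limma adjusted p = 2.96e-05), or -3.32 after median-of-ratios scaling. Mmp14, a membrane protease, had 1.35, 1.76 and 2.17 TPM in the knockout at day 7, against 1.33, 1.04 and 1.25 TPM at day 5. Control cells had 23.1, 30.6 and 35.6 TPM at day 7, against 3.98, 3.12 and 2.68 TPM at day 5, a difference of -2.53 ± 0.28 (-2.79). Aif1, an actin-bundling protein of macrophages, differed by -2.46 ± 0.41 (-2.69), Ms4a4c by -2.47 ± 0.37 (-2.70) and Adgre4, a receptor of monocytes, by -2.27 ± 0.18 (-2.45). Adgre4 stayed at 0.10, 0.12 and 0.18 TPM in the knockout at day 7, against 0.020, 0.12 and 0.070 TPM at day 5. Fcnb differed by -2.25 ± 0.69 (-2.53), a call that was lost in 11 of 22 other settings. Macrophage genes were thus found on both sides of this test, with 13 of the list higher and 4 lower as deposited, and 7 and 4 after scaling.

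The difference was not found for several groups that moved in the knockout. No gene of the S phase list passed it under either scaling, and of the mitosis list none passed as deposited and 4 were lower after median-of-ratios scaling. At an unadjusted limma p under 0.05, 1 of the 45 S phase genes and 2 of the 45 mitosis genes passed as deposited. A p that misses the threshold does not show that the changes were equal. Csf1r had a difference of -0.18 ± 0.17 and Apoe of -1.23 ± 0.74, neither of which passed (limma adjusted p = 0.47 and 0.245). Apoe had 529, 660.2 and 479 TPM in control cells at day 7, against 11.2, 6.63 and 6.72 TPM at day 5. Ltf, Ngp and Camp did not pass either, and the difference for Ngp was -1.56 ± 0.99 (limma adjusted p = 0.276), with 4976, 4623 and 2707 TPM in control cells at day 7, against 1950.5, 6485 and 6275 TPM at day 5.

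**Figure D4:**
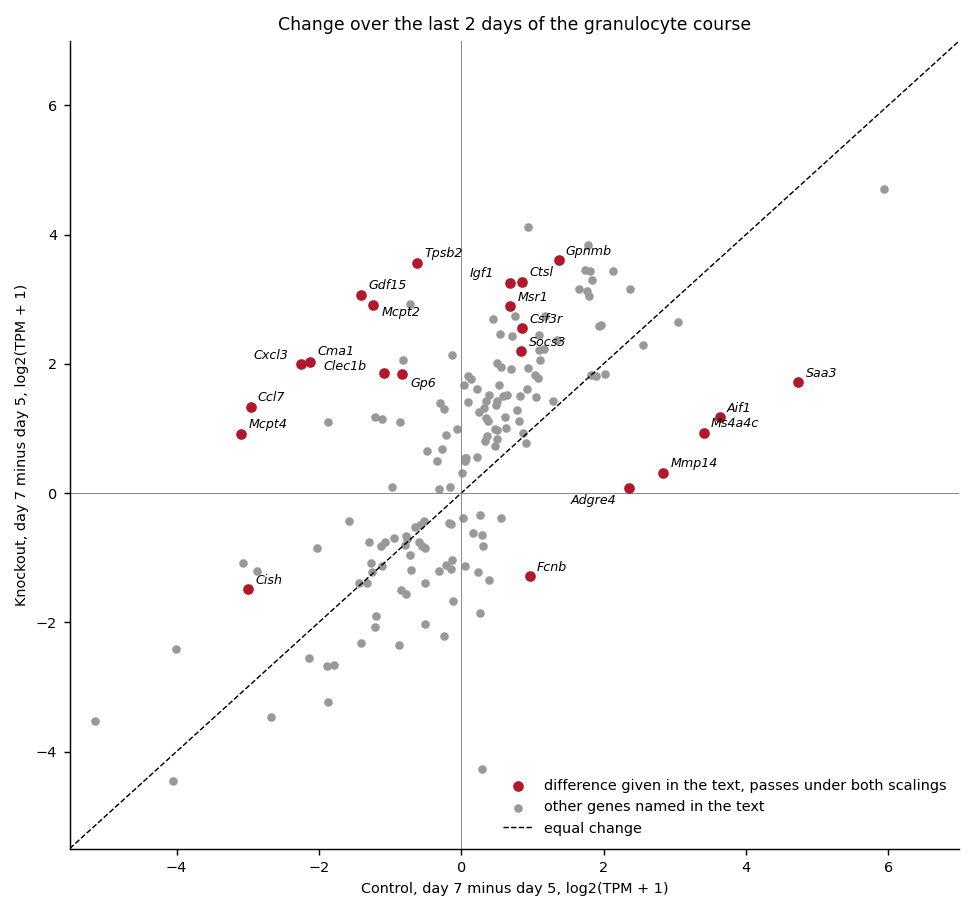
Log2 change of TPM + 1 between day 7 and day 5 in knockout cells (vertical axis) and in control cells (horizontal axis) for 169 genes named in the text, with the diagonal of equal change. Red points are the 22 genes whose genotype difference the text gives as passing, each of which passed under both scalings, and grey points are the others. Gdf15, Ccl7, Tpsb2 and Cma1 lie far above the diagonal and Saa3, Mmp14 and Adgre4 far below it.

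Over the whole course the knockout changes at day 7 fell into different shapes. Csf3r averaged 21.7 ± 1.42, 22.5 ± 0.572, 30.7 ± 6.5 and 184 ± 37.7 TPM in knockout cells at day 0, 3, 5 and 7 (SD, n = 3 each). Tpsb2 averaged 0.020 ± 0.0346, 7.05 ± 0.122, 23.6 ± 7.93 and 344 ± 216 TPM on these days, and most of its level thus appeared in the last interval. Ccl17 averaged 0.357 ± 0.17, 239 ± 48.4, 249 ± 26.3 and 13.6 ± 11.8 TPM, high at both day 3 and day 5. Gp6 averaged 0.060 ± 0.0557, 1.01 ± 0.659, 2.83 ± 1.01 and 12.6 ± 2.52 TPM in knockout cells and 0.0967 ± 0.142, 11.1 ± 2.42, 7.19 ± 1.13 and 3.72 ± 1.63 TPM in control cells. Elane averaged 3824 ± 1010, 1205 ± 124, 161 ± 25.2 and 48.7 ± 52.2 TPM, so that its fall after day 5 continued one from earlier days. Ctsd averaged 282 ± 9.49, 1013 ± 140, 1861 ± 75.4 and 7202 ± 372 TPM in knockout cells and 266 ± 18.6, 2162 ± 377, 4975 ± 690 and 7447 ± 1810 TPM in control cells.

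**Figure D5:**
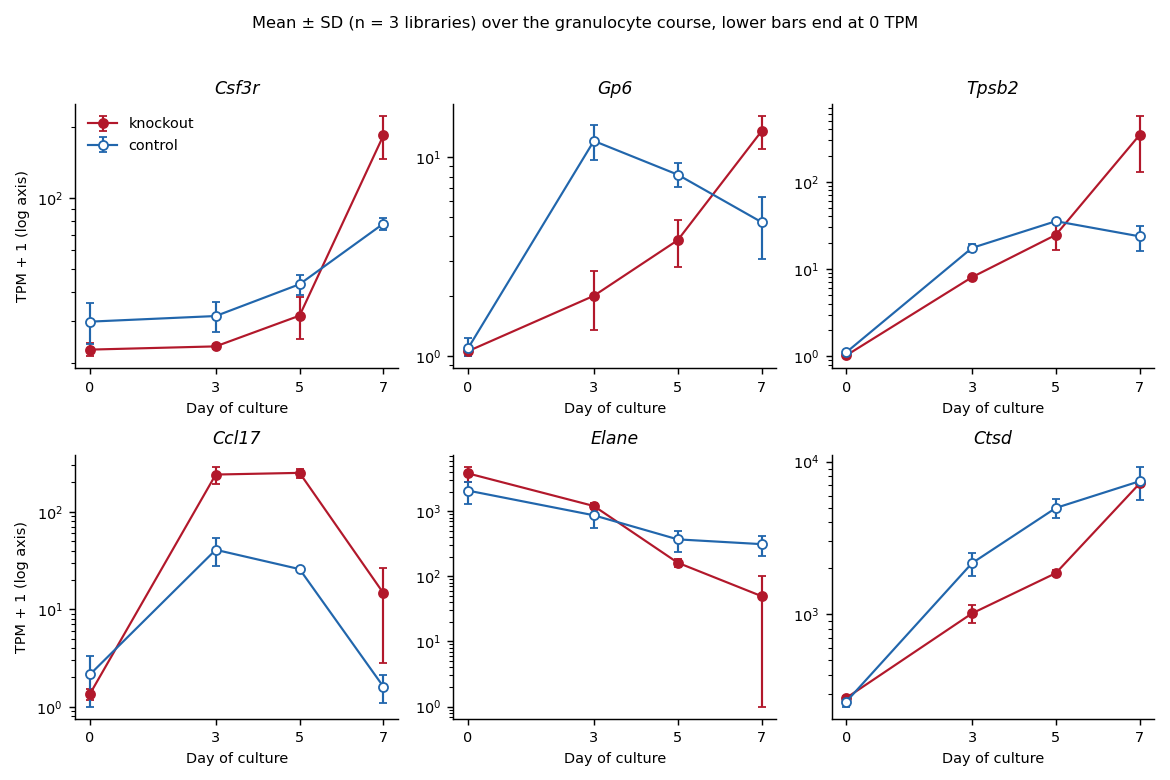
Mean TPM ± SD (n = 3 libraries) on a log axis of TPM + 1 at day 0, 3, 5 and 7 for 6 genes in knockout cells (filled) and control cells (open). Tpsb2 climbs between day 5 and day 7 in knockout cells, Ccl17 is high at day 3 and day 5 and low at day 7, Elane declines from day 0, and Gp6 climbs to day 7 in knockout cells while it declines after day 3 in control cells.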

How the data were processed

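RNA-seq of cultured mouse cells was deposited by the authors as a TPM table of the granulocyte course (24 libraries, 24411 genes). RSEM and DESeq2 1.38.3 and the build mm10 are named in the submitters' processing notes without their roles, and strand use and the aligner are not given in the sources used here. TPM keeps no read depth, so that read depth stays unknown and counting intervals are left out. Genes reaching 1 TPM in 3 libraries or more (11905) were fitted on log2(TPM + 1) with limma 3.58.1 in R 4.3.3, 8 groups sharing a trended variance, with Benjamini-Hochberg adjustment over all genes tested and a threshold of 0.05. Such fold changes understate those of low genes. The 3 comparisons were knockout day 7 against day 5, the same in controls, and their difference. No 2 libraries held identical values.

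The members and the 42 gene lists (998 symbols, 11 unmatched) were chosen with earlier results of these data known. Genes were named by rule: the 15 largest rises and falls with adjusted p under 0.05, a mean of at least 5 TPM and no overlap, up to 4 members a list by p, 8 each way for the genotype difference, the 10 most abundant genes, and a fixed set of granulocyte genes. Adgre1, C1qc, Ccl5, Cd177, Cd36, Csf2rb, Cxcl2, Cxcr4, Fcer1a, G0s2, Gata2, Irf7, Itga2b, Lamp1, Ly6c2, Mcpt8, Olfm4, Pf4, Prg2, Prg3, Prss34, Socs2, Stfa3 and Trem2 were named after their values were seen, and some genes that the rule names are not reported here.

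Whether replicate numbers pair the knockout libraries was not settled. Deviations of same-numbered knockout libraries of day 7 and day 5 correlated at 0.344, 0.159 and 0.278 for replicates 1, 2 and 3. Replicates 2 and 3 also correlated across numbers, at 0.173 for day 7 replicate 2 with day 5 replicate 3 and 0.113 the other way. Replicate 1 of day 7 stood at -0.183 and -0.309 against replicates 2 and 3 of day 5. In controls the same-numbered values were 0.0886, -0.266 and 0.167. Shares of TPM were compared with exact permutation tests. The fit was tested on simulated data. Coordinates are from GENCODE M21. Alternatives were other pseudocounts (0.1 and 5 TPM), filters, scalings, groups fitted alone, a replicate block and libraries left out. Leaving out knockout replicate 1 at both days was added after the data were seen.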

Additional observations from a re-analysis of the deposited data

Results flagged for a closer look

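The change between day 7 and day 5 differed between the genotypes, by limma's test of the difference itself, for 22 genes whose difference the report gives. For each, the knockout change minus the control change follows in log2 units. Among cytokines the difference was 4.48 for Gdf15, 4.30 for Ccl7 and 4.25 for Cxcl3, which rose in the knockout and fell in controls. Among mast cell proteases it was 4.19 for Tpsb2, 4.15 for Cma1, 4.15 for Mcpt2 and 4.01 for Mcpt4, where Mcpt4 did not pass in the knockout and Mcpt2 did not pass in controls. For the platelet genes Gp6 and Clec1b it was 2.68 and 2.93. For the macrophage and lysosome genes Igf1, Ctsl, Gpnmb and Msr1 it was 2.57, 2.42, 2.24 and 2.21, and controls were higher than the knockout at day 5 in all 4. For the cytokine pathway genes Csf3r, Cish and Socs3 it was 1.69, 1.51 and 1.35. A higher control mean at day 5 was not particular to the macrophage and lysosome genes. Control and knockout day 5 means were 47.5 and 7.65 TPM for Gdf15, 89.1 and 23.3 TPM for Cma1, and 14.8 and 1.06 TPM for Mcpt4. They were 19.5 and 4.24 TPM for Clec1b, 7.19 and 2.83 TPM for Gp6, and 42.1 and 30.7 TPM for Csf3r. The knockout mean was the higher for Cish (22.3 and 51.5 TPM) and Aif1 (0.447 and 0.803 TPM). The knockout change was the lower for Saa3 (-3.02), Mmp14 (-2.53), Ms4a4c (-2.47), Aif1 (-2.46), Adgre4 (-2.27) and Fcnb (-2.25), where the first 5 rose in controls and Mmp14 and Adgre4 did not pass in the knockout. All 22 passed also after median-of-ratios scaling, which was a condition for being listed here. The call for Fcnb was lost in 11 of 22 other settings, as given above.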

How the results depend on the processing

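Of 164 genes whose knockout values are given, 141 kept their direction and their side of the threshold in all settings. Signs turned for genes that did not pass: Taf1 (-0.0255 after median-of-ratios scaling, -0.136 without short structural RNA, histone and calprotectin genes, -0.00927 to 0.159 with single libraries left out), Cdkn1a (-0.00252, -0.121, and -0.0167 to 0.282), Neu1 (-0.00152 and -0.12) and Tnf (-0.0698 to 0.587 with single libraries left out). The cause was not tested. Genes lower in the knockout numbered 2748 after median-of-ratios scaling and 3629 without the named RNA classes. In controls median-of-ratios scaling gave 2774 higher and 2158 lower, and the contrast's groups alone gave 2304, 657 higher and 1647 lower. The genotype difference gave 929 (600 higher, 329 lower) after median-of-ratios scaling, 854 (625, 229) without the named classes, 534 (486, 48) with the groups alone, 2552 (219 lower) without knockout replicate 1, and 250 lower without control day 5 replicate 1 too. With single libraries left out it ranged over 780 to 3276, 702 to 3031 higher and 65 to 245 lower. Without the named classes 6 primary granule, 61 ribosomal protein, 8 TFIID and 11 sterol genes fell, and after median-of-ratios scaling 30 ribosomal protein and 6 TFIID genes. Without replicate 1 at both days 6 primary granule and 4 ribosomal protein genes fell. With the groups alone 6 mast cell genes rose and 18 ATF4 genes fell. With single libraries left out the ranges were 2 to 6 primary granule, 4 to 9 ribosomal protein and 5 to 9 ATF4 genes lower, and 6 to 15 mast cell genes higher. The primary granule share, day 7 minus day 5, ranged from -0.0307 to 0.0142 percentage points. With the replicate block 4874 knockout genes passed and 1485 for the genotype difference, and of the named genes Fcnb, S100a6 and Kit changed their call and no others did. TPM carries no depth, and 3 libraries against 3 cannot reach an exact p under 0.1.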
